A study of Mus musculus with 6 samples.

Results

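The genes described here drive a cell from G1 into S phase and copy its DNA. They are the G1 cyclins and their kinases, the RB and E2F proteins, the origin licensing machinery and the proteins of the replication fork. Of 56 listed genes, 55 had a row among the 12327 genes of the deposited table, matched by Ensembl identifier to GENCODE M21, and E2f7 had none. All 55 passed the filter on low values and were tested with the other genes, 12222 in all.

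The cells were BV2, a mouse microglial line immortalised in culture and grown in high-glucose medium with fetal bovine serum. The 3 libraries labelled GCH1-KD came from cells infected for 48 hours with an adenovirus named for a short hairpin RNA against GCH1 (Ad-shGCH1), and the other 3, labelled negative control (Ad-NC), came from the remaining cells of the same subline, which the series text calls wild type. Whether a virus was also added to the controls is unclear from the labels. All libraries were made from ribosomal RNA-depleted total RNA, so the groups share the cell line, the medium and the preparation. No label ties the libraries to separate cultures, so a p-value here reflects the spread among 6 libraries, and that spread may be technical.

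Cyclin D with CDK4 or CDK6, and later cyclin E with CDK2, phosphorylates RB and its relatives, which releases E2F transcription factors. E2F then drives genes of DNA synthesis, among them its own family and most of the licensing factors. In G1 the origin recognition complex, CDC6 and CDT1 load the MCM helicase onto origins. In S phase CDC45 and GINS activate that helicase, and polymerases, the PCNA clamp and its loader follow. BV2 cells carry viral oncogenes and divide steadily in culture, unlike resting microglia in the brain.

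The targeted gene checked the labels. Gch1, the rate-limiting enzyme of tetrahydrobiopterin synthesis, was at 3.20, 2.93 and 3.43 FPKM (fragments per kilobase of transcript, scaled to library size, the unit of all levels below) in the knockdown libraries, against 6.89, 7.22 and 7.23 FPKM in the controls (limma, Benjamini-Hochberg adjusted p = 0.00542 over all genes). Summed values per library were 224291 to 230292 FPKM. The estimated depth, in gigabases of aligned sequence, was 6.32 to 7.61 for the knockdown libraries and 5.25 to 5.58 for the controls. Of the microglial marker genes 10 of 12 were measured, with summed levels of 844 to 897 FPKM in the knockdown libraries and 891 to 910 FPKM in the controls. Most of the sum came from Cd68 (means of 457 FPKM in the knockdown and 486 FPKM in the controls) and Tyrobp (259 and 265 FPKM). Of the 10 markers, 6 had means below control and 4 above (Aif1, Csf1r, Ptprc and Tmem119). Aif1 had the smallest p, with means of 2.53 FPKM in the knockdown and 1.99 FPKM in the controls (limma adjusted p = 0.417). Tmem119 averaged 0.60 FPKM in the knockdown and 0.57 FPKM in the controls. Itgam spread from 7.10 to 31.1 FPKM over the libraries. P2ry12 and C1qa had no row. Of 30 marker genes of astrocytes, oligodendrocytes, neurons, endothelium, fibroblasts and lymphocytes, 6 were measured, and no neuronal marker was. The highest was the astrocyte marker Aldoc, at means of 25.6 FPKM in the knockdown and 27.0 FPKM in the controls. The endothelial marker Flt1 averaged 22.1 FPKM in the knockdown and 22.3 FPKM in the controls. The lowest was Acta2, at 0.52 FPKM in the knockdown and 0.51 FPKM in the controls.

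E2F proteins bind a short element near the start of many of these genes, and the promoters were searched for it. The E2F-type octamers searched were TTTCCCGC, TTTCGCGC, TTTGCCGC and TTTGGCGC, on both strands, in windows of 250 bases before to 50 bases after each RefSeq start (GRCm38.p6). Neighbouring matches can overlap, as in the Mcm5 and Mcm6 sequences. Of 45 listed genes with a promoter entry, 20 (44.4%) held at least 1 octamer, against 442 of 8738 tested genes with an entry (5.06%). By window the share was 36.2% of 58 among the listed genes, 4.19% of 11144 among the tested genes, and 2.26% of 32851 in the whole promoter table. Origin licensing genes held it in 7 of 10, RB and E2F genes in 5 of 8, polymerases and strand processing genes in 3 of 8, and helicase activation genes in 0 of 2. TTTGCCGC was found in 0 of the 45. A match is a description of the letters and does not show binding. The sequences below show the octamer in capitals, in either orientation, with up to 8 bases on each side, for 8 licensing and E2F genes and for Pold1 and Lig1 at the fork, 5′ to 3′ on the strand of the gene.
Orc1 (chr4:108579419-108579442, plus strand): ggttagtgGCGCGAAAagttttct
Cdc6 (chr11:98908005-98908028, plus strand): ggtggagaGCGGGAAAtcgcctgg
Mcm3 (chr1:20820278-20820301, minus strand): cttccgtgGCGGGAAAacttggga
Mcm5 (chr8:75109348-75109371, plus strand): ccaagaacTTTCGCGCCAAAacgt
Mcm6 (chr1:128359800-128359823, minus strand): cgtatgctTTTGGCGCGAAAagtg
Mcm7 (chr5:138172033-138172056, minus strand): ttcgaaccGCGGGAAAcagggtgt
E2f3 (chr13:29986059-29986082, minus strand): aaaagccgGCGGGAAAtctgagtt
Rbl1 (chr2:157204537-157204560, minus strand): aaggcgatTTTCGCGCgctttgtc
Pold1 (chr7:44548766-44548784, minus strand): atcttgtgGCGGGAAAagc
Lig1 (chr7:13278844-13278867, plus strand): caaagtgcGCGCGAAAtctgtgtg
In Mcm5 and Mcm6 octamers of opposite orientation overlapped to form runs of 12 bases, and Mcm6 held 3 octamers in its window. The first octamer began 27 bases before the start in Orc1, 18 before in Rbl1 and 11 before in E2f3. In Pold1 it began at base 40 after the start, in Lig1 at base 27 and in Mcm3 at base 20. The whole windows of Orc1 and Pold1 are given because both hold the octamer and both had an unadjusted p under 0.05 in the comparison of knockdown with control. Neither gene kept that p when knockdown library 1 was left out.
Orc1 (chr4:108579204-108579503, plus strand): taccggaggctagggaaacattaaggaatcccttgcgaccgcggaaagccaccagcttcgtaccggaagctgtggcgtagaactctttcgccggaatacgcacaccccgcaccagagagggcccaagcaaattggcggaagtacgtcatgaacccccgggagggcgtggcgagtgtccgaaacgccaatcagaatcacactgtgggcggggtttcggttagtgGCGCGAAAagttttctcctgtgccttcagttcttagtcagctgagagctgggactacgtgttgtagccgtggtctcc
Pold1 (chr7:44548766-44549065, minus strand): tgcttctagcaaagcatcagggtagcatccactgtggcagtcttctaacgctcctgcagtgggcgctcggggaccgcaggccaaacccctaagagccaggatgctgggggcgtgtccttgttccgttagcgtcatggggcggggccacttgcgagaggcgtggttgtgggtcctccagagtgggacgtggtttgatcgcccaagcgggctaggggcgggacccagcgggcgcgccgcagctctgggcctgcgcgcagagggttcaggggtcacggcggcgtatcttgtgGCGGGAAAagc

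Across the 55 genes, differences between knockdown and control were small and mostly downward. No gene passed a limma adjusted p of 0.05, a count of 0, against 10 of 12222 genes overall (0.0818%). At an unadjusted p under 0.05 there were 6 lower and 0 higher. Lower in the knockdown were the cyclin gene Ccnd1, the E2F repressor gene E2f8, the polymerase subunit genes Pold1 and Pola2, the origin gene Orc1 and the E2F activator gene E2f1. These are 10.9% of the 55, against 4.82% of all tested genes lower and 6.47% higher. In 9 of the 55 (16.4%) all 3 knockdown libraries lay below all 3 controls, against 8.36% of all genes, and in 0 did they lie above, against 9.99%. The mean was below control in 39 of 55 (70.9%), against 47% of all genes. The median log2 fold change of the 55, as knockdown minus control on log2(FPKM + 1), was -0.060, against 0.01 over all genes. The 95% limma interval lay within a 1.25-fold change in either direction (0.32 on the log2 scale) for 41 of the 55. A bulk measurement cannot tell apart fewer cells in S phase and less RNA per cell.

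Knockdown library 1 carried much of this shift. It held the lowest value of the 6 libraries in 28 of the 55 genes (50.9%), while it held the lowest value in 16.3% of all genes. Its median over the 55 genes was -0.13 relative to the control mean, against 0.02 in knockdown library 2 and -0.03 in knockdown library 3. The controls were at -0.04, 0.01 and 0.04 in the order of their numbers, so the knockdown libraries 2 and 3 lay inside the range of the controls. Over all genes the same medians were between -0.01 and 0.02 in every library. Control library 3 held the highest value in 22 of the 55 genes (40%), against 17.7% of all genes.

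Without knockdown library 1, 31 of 55 genes were below control, against 47.4% of all genes, and the median log2 fold change was -0.013. The genes lower at an unadjusted p under 0.05 were then 2 (Ccnd1 and E2f8), against 3.74% of all genes. Groups that did not overlap numbered 9 lower and 4 higher, against 12.9% and 14% of all genes. Without knockdown library 2 the count at an unadjusted p under 0.05 was 11 lower, against 4.05% of all genes, and 21 genes lay below all controls, against 12.3%. Without control library 3 the count at an unadjusted p under 0.05 was 3 lower, against 4.16% of all genes.

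**Figure D1:**
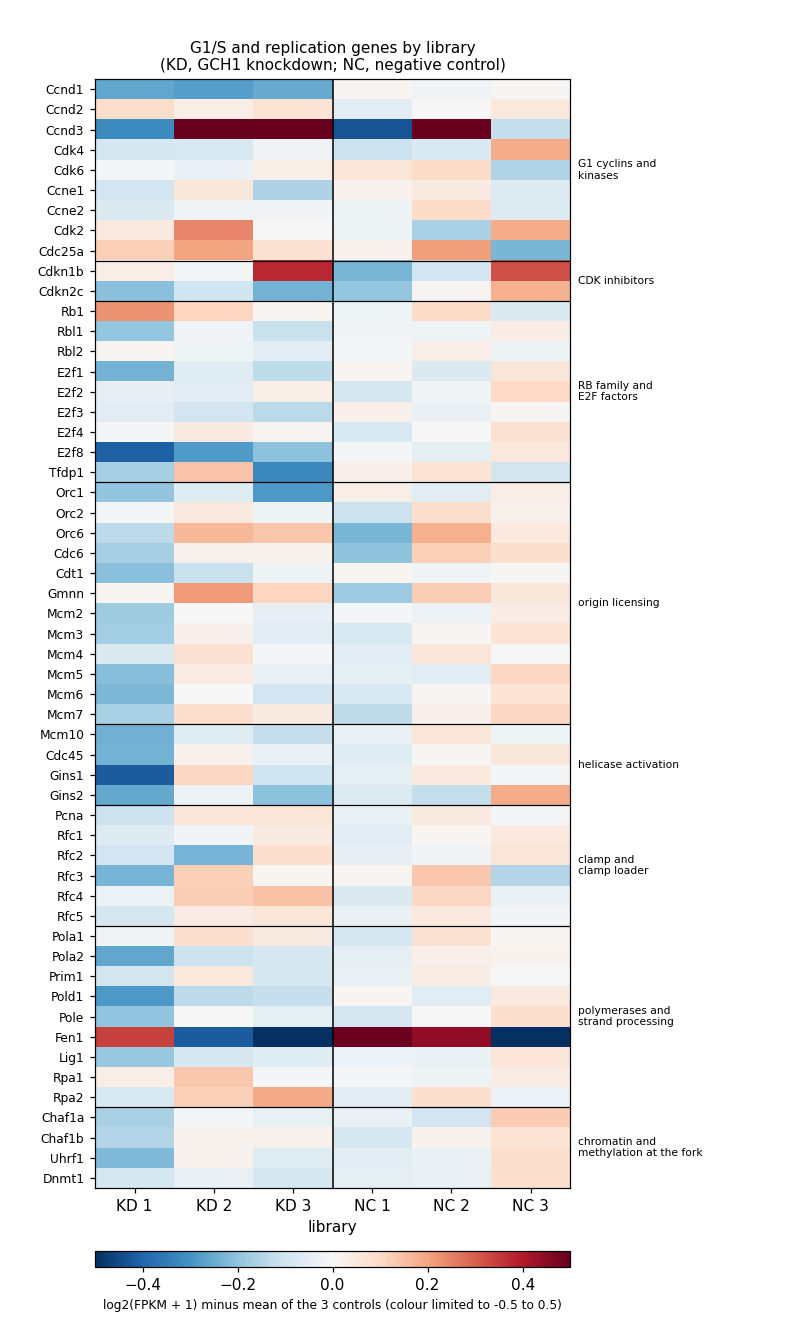
Each row is 1 gene and each column 1 library (KD, knockdown; NC, control); colour gives log2(FPKM + 1) minus the mean of the 3 controls, limited to -0.5 to 0.5, with rows in blocks by role. Knockdown library 1 is blue in most rows, Ccnd1 and E2f8 are blue in all 3 knockdown libraries, and Ccnd3 and Fen1 vary widely in both groups.

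Among the G1 cyclins, Ccnd1 was lower in the knockdown and Ccnd2 was not. Ccnd1 encodes cyclin D1, the cyclin that links growth factor signals to CDK4 and CDK6 (ENSMUSG00000070348.5; GRCm38 chr7:144929931-144939925, minus strand). It was at 38.1, 37.7 and 38.2 FPKM in the knockdown libraries, against 46.1, 45.3 and 45.9 FPKM in the controls. The groups were far apart relative to their spread, and knockdown library 1 lay between the other two of its group. Means were 38.0 ± 0.31 FPKM in the knockdown and 45.8 ± 0.40 FPKM in the controls (SD, n = 3 each), so that the knockdown stood at 83.0% of control. The log2 fold change was -0.26 (SE 0.03, limma adjusted p = 0.0718), and Ccnd1 ranked 11 of 12222 genes by p. An exact permutation test on its FPKM (two-sided) gave p = 0.1, and no smaller p is possible with 3 against 3.

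The adjusted p of Ccnd1 lay on either side of the threshold with the way GC content was handled. With the trend in GC content and length removed, using the median over each gene's transcripts, it was 0.0814. With the longest transcript in its place, a setting chosen after seeing the data, it was 0.0366, and the log2 fold change was -0.25. Under the first of these settings 5 of the 55 genes were lower at an unadjusted p under 0.05, against 5.54% of all genes, 10 lay below all controls and 1 above, against 8.81% and 9.83%, and 40 had a mean below control, against 49.3%. Under the second these were 6 genes against 5.01%, 9 against 7.94%, 0 against 11.2%, and 38 against 46.9%. Over all alternatives the adjusted p ranged from 0.0366 to 0.365 and the log2 fold change from -0.27 to -0.24. Ccnd1 overlaps LTO1 on the opposite strand. LTO1 was at 1.16 to 1.33 FPKM in the knockdown libraries and 1.004 to 1.20 FPKM in the controls.

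Ccnd2, cyclin D2, was at 21.2, 20.4 and 20.9 FPKM in the knockdown libraries, against 19.1, 20.0 and 20.7 FPKM in the controls, and the groups overlapped. Its log2 fold change was 0.06 (SE 0.04, 95% interval -0.04 to 0.16, limma adjusted p = 0.60). The ratio of Ccnd1 to Ccnd2 in FPKM, looked at after the values were seen, was 1.80, 1.84 and 1.83 in the knockdown libraries, against 2.41, 2.27 and 2.22 in the controls. This ratio did not overlap between the groups (two-sided exact permutation p = 0.1). Ccnd1 already separated the groups by itself, so the ratio is no further evidence. Ccnd1 made up 62.8%, 60.6% and 58.2% of the summed FPKM of the D-type cyclin genes in the knockdown libraries, against 69.4%, 66.1% and 67.2% in the controls. That share (two-sided exact permutation p = 0.1) rests in part on Ccnd3, which varied widely between libraries.

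Ccnd3, cyclin D3, could not be compared with any precision. It was at 1.36, 4.02 and 6.51 FPKM in the knockdown libraries, against 1.18, 3.30 and 1.71 FPKM in the controls. Its highest library was 5.51 times its lowest, and its log2 fold change of 0.60 had a 95% interval of -0.41 to 1.61. The gene Bysl, which overlaps it on the opposite strand, was at 9.84 to 9.98 FPKM in the knockdown libraries and 10.1 to 11.3 FPKM in the controls.

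The genes of the kinases and E-type cyclins had group means close to each other, and none passed the test. Cdk4 averaged 27.7 ± 0.73 FPKM in the knockdown and 29.0 ± 3.45 FPKM in the controls (SD, n = 3 each). Cdk6, the alternative partner of the D-type cyclins, averaged 16.0 ± 0.39 FPKM in the knockdown and 16.1 ± 1.53 FPKM in the controls. Cdk2, which pairs with cyclin E, averaged 5.55 FPKM in the knockdown and 5.14 FPKM in the controls. Cyclin E1, Ccne1, averaged 6.57 FPKM in the knockdown and 6.91 FPKM in the controls. Ccne2, cyclin E2, had the lowest level of the 55, at 2.13 ± 0.075 FPKM in the knockdown and 2.21 ± 0.18 FPKM in the controls (log2 fold change -0.03, SE 0.06, limma adjusted p = 0.867). Cdc25a, the phosphatase that activates CDK2, had means of 3.80 FPKM in the knockdown and 3.42 FPKM in the controls. For these 6 genes the log2 fold change lay between -0.07 and 0.13, and the limma adjusted p between 0.671 and 0.992.

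Of the CDK inhibitors listed, Cdkn1b encodes p27, which blocks cyclin E with CDK2, and Cdkn2c encodes p18, which blocks CDK4 and CDK6. Cdkn1b was at 5.05, 4.89 and 6.67 FPKM in the knockdown libraries, against 4.05, 4.54 and 6.40 FPKM in the controls. In both groups the library numbered 3 was the highest. Cdkn2c was at 3.51, 3.87 and 3.42 FPKM in the knockdown libraries, against 3.57, 4.27 and 4.90 FPKM in the controls, and only knockdown library 2 lay within the range of the controls. The log2 fold change of Cdkn1b was 0.13 (SE 0.16, limma adjusted p = 0.776), and that of Cdkn2c was -0.18 (SE 0.10, limma adjusted p = 0.521).

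**Figure D2:**
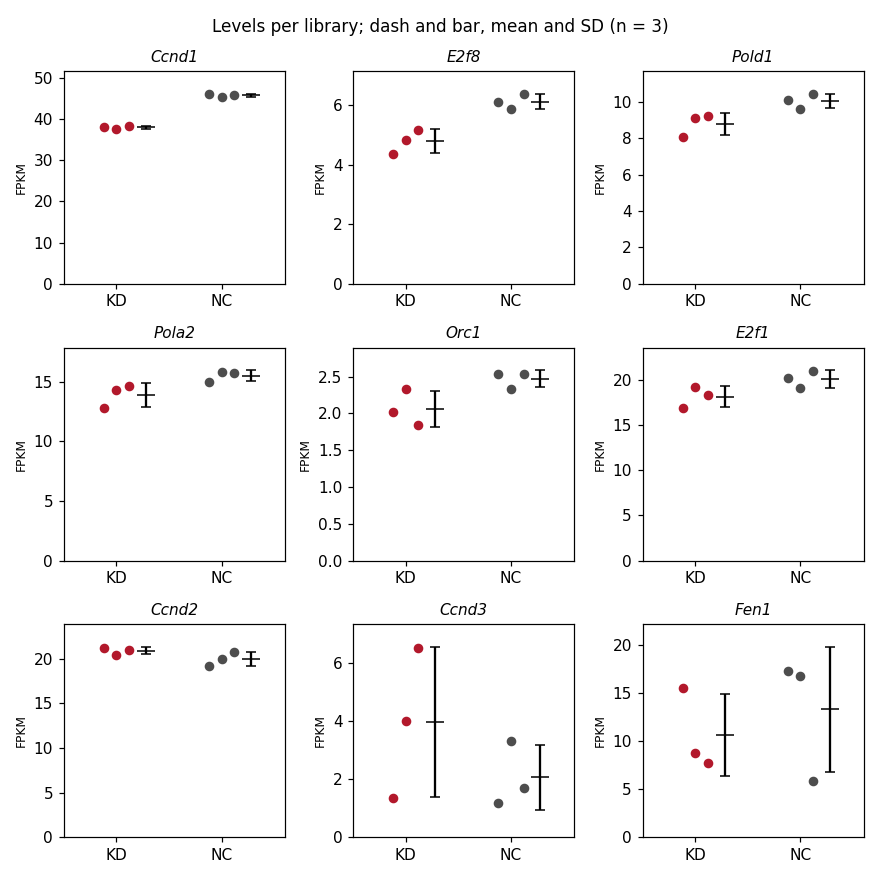
FPKM of 9 genes in each library (points; KD, knockdown in red, NC, control in grey), with the mean and SD of 3 libraries as dash and bar; each axis starts at 0. Ccnd1 and E2f8 separate the groups, Ccnd2 does not, and Ccnd3 and Fen1 spread over most of their range within a group.

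In the RB and E2F family 7 of 9 genes had means below control and 2 above. E2f8 encodes an atypical E2F that represses E2F targets late in S phase (chr7:48866429-48881596, minus strand). Its level was 4.36, 4.84 and 5.17 FPKM in the knockdown libraries, against 6.09, 5.87 and 6.39 FPKM in the controls, with no overlap. It had the lowest fold change of the 55, a log2 fold change of -0.30 (SE 0.07, limma adjusted p = 0.262), at 78.3% of control. E2f1, a transcriptional activator, was at 16.9, 19.2 and 18.3 FPKM in the knockdown libraries, against 20.2, 19.0 and 20.9 FPKM in the controls. Knockdown library 2 lay within the control range. Its log2 fold change was -0.14 (SE 0.06, limma adjusted p = 0.433).

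E2f3, another activator, was at 12.5, 12.1 and 11.7 FPKM in the knockdown libraries, against 13.3, 12.7 and 13.0 FPKM in the controls. The groups did not overlap, but the log2 fold change was only -0.10 (SE 0.04, limma adjusted p = 0.466). The third activator gene, E2f2, averaged 4.16 ± 0.17 FPKM in the knockdown and 4.24 ± 0.34 FPKM in the controls (log2 fold change -0.02, SE 0.06, limma adjusted p = 0.922). E2f4, a repressor that works with the pocket proteins in resting cells, was at 21.6 ± 0.42 FPKM in the knockdown and 21.3 ± 1.18 FPKM in the controls, the highest level of the family (log2 fold change 0.02, SE 0.05, limma adjusted p = 0.916). Tfdp1, a partner with which many E2F proteins bind DNA, spread over 15.6, 19.5 and 13.9 FPKM in the knockdown libraries, against 17.9, 18.5 and 16.5 FPKM in the controls.

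The genes of the pocket proteins had means on both sides of control. Rb1 averaged 13.0 ± 1.04 FPKM in the knockdown and 11.9 ± 0.76 FPKM in the controls (log2 fold change 0.11, SE 0.07, limma adjusted p = 0.553). Rbl1, p107, was at 9.10, 10.4 and 9.69 FPKM in the knockdown libraries, against 10.4, 10.4 and 10.8 FPKM in the controls (log2 fold change -0.11, SE 0.06, limma adjusted p = 0.517). Rbl2, p130, averaged 5.99 FPKM in the knockdown and 6.11 FPKM in the controls.

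Of 12 origin licensing genes, 9 had means below control, and the median over the 12 was -0.054 on the log2 scale. Orc1 encodes the largest subunit of the origin recognition complex, and its promoter is shown above (gene at chr4:108579423-108614833, plus strand). It was at 2.02, 2.33 and 1.84 FPKM in the knockdown libraries, against 2.54, 2.33 and 2.53 FPKM in the controls. The highest knockdown library, at 2.328 FPKM, lay just under the lowest control, at 2.334 FPKM. Its log2 fold change was -0.18 (SE 0.07, limma adjusted p = 0.424). Orc2, another subunit, averaged 11.5 FPKM in both groups. Orc6 averaged 7.72 FPKM in the knockdown and 7.39 FPKM in the controls.

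Cdt1, which brings the MCM helicase to origins, was at 23.1, 24.8 and 26.4 FPKM in the knockdown libraries, against 27.0, 26.6 and 27.0 FPKM in the controls. The groups did not overlap, and the log2 fold change was -0.12 (SE 0.05, limma adjusted p = 0.467). Its inhibitor geminin, Gmnn, averaged 14.5 ± 1.09 FPKM in the knockdown and 13.4 ± 1.58 FPKM in the controls, a log2 fold change of 0.11 (SE 0.09, limma adjusted p = 0.666). Cdc6, the loading ATPase, averaged 3.79 FPKM in the knockdown and 3.94 FPKM in the controls.

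The helicase subunits Mcm2 to Mcm7 form a ring with 1 copy of each protein. The FPKM levels of their genes, which measure RNA and not protein, were unequal. Averaged over the 6 libraries the order was Mcm6 at 33.7, Mcm3 at 28.4, Mcm4 at 26.4, Mcm5 at 20.7, Mcm7 at 18.7 and Mcm2 at 13.2 FPKM. This order was the same within each of the 6 libraries. Taken over the libraries, the ranges of Mcm6 and Mcm3, of Mcm3 and Mcm4 and of Mcm5 and Mcm7 overlapped. The summed level of the 6 subunits was 127, 148 and 140 FPKM in the knockdown libraries, against 137, 144 and 150 FPKM in the controls. The groups overlapped, and the sum in the knockdown was 0.960 times that in the controls (two-sided exact permutation p = 0.6, n = 3 each). The lowest fold change among them was that of Mcm6, at 29.7, 35.0 and 32.6 FPKM in the knockdown libraries, against 33.0, 35.0 and 36.6 FPKM in the controls (log2 fold change -0.11, SE 0.07, limma adjusted p = 0.567). Mcm4 had a log2 fold change of -0.002 with a 95% interval of -0.12 to 0.12.

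All 4 helicase activation genes had means below control, with log2 fold changes of -0.16 to -0.08. Mcm10, which helps start unwinding, was at 3.73, 4.36 and 4.17 FPKM in the knockdown libraries, against 4.45, 4.84 and 4.51 FPKM in the controls, with no overlap (log2 fold change -0.14, SE 0.07, limma adjusted p = 0.482). Cdc45, which completes the active helicase with GINS, averaged 24.8 ± 2.38 FPKM in the knockdown and 26.3 ± 1.10 FPKM in the controls (log2 fold change -0.08, SE 0.07, limma adjusted p = 0.689). The GINS subunit gene Gins2 averaged 4.06 FPKM in the knockdown and 4.68 FPKM in the controls. Gins1 was at 8.47, 12.6 and 10.8 FPKM in the knockdown libraries, against 11.3, 12.1 and 11.6 FPKM in the controls. Knockdown library 1 was the lowest of the 6 for Gins1, Gins2, Cdc45 and Mcm10.

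The clamp and its loader showed no common direction, with 3 genes below control and 3 above. Pcna, the sliding clamp and the most abundant transcript of the 55, was at 67.9, 76.3 and 76.4 FPKM in the knockdown libraries, against 71.4, 75.4 and 72.6 FPKM in the controls. Its log2 fold change was 0.01 (SE 0.05, 95% interval -0.12 to 0.13, limma adjusted p = 0.9755). The clamp loader subunits Rfc1 to Rfc5 had log2 fold changes of -0.08 (Rfc2) to 0.08 (Rfc4). Their levels over the 6 libraries ranged from 4.01 FPKM for Rfc3 to 17.0 FPKM for Rfc1. Rfc3 averaged 3.95 ± 0.60 FPKM in the knockdown and 4.06 ± 0.49 FPKM in the controls (log2 fold change -0.03, SE 0.11, limma adjusted p = 0.927).

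At the fork, the polymerase genes Pold1 and Pola2 had unadjusted p values under 0.05 with all 6 libraries. Without knockdown library 1 the unadjusted limma p was 0.067 for Pold1 and 0.095 for Pola2. Pold1, the catalytic subunit of the polymerase that extends the lagging strand (chr7:44532746-44548849, minus strand; promoter above), had levels of 8.05, 9.08 and 9.19 FPKM in the knockdown libraries, against 10.1, 9.60 and 10.4 FPKM in the controls. Its log2 fold change was -0.18 (SE 0.06, limma adjusted p = 0.375). Pola2, the B subunit of the priming polymerase (chr19:5940542-5964202, minus strand), had levels of 12.8, 14.3 and 14.6 FPKM in the knockdown libraries, against 14.99, 15.8 and 15.7 FPKM in the controls (log2 fold change -0.15, SE 0.06, limma adjusted p = 0.399). Neither overlapped between the groups. Of the other priming subunits, Pola1 averaged 7.58 FPKM in the knockdown and 7.38 FPKM in the controls, with a log2 fold change of 0.04. Prim1 averaged 7.52 FPKM in the knockdown and 7.77 FPKM in the controls, with a log2 fold change of -0.04. Whether these differ from Pola2 was not tested.

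Lig1, the ligase that joins lagging strand fragments, was at 9.25, 10.1 and 10.2 FPKM in the knockdown libraries, against 10.4, 10.4 and 11.2 FPKM in the controls, without overlap (log2 fold change -0.11, SE 0.05, limma adjusted p = 0.494). Pole, the leading strand polymerase, averaged 6.19 ± 0.51 FPKM in the knockdown and 6.60 ± 0.44 FPKM in the controls (log2 fold change -0.08, SE 0.07, limma adjusted p = 0.697). The single-strand binding gene Rpa1 averaged 17.1 ± 0.93 FPKM in the knockdown and 16.4 ± 0.39 FPKM in the controls (log2 fold change 0.05, SE 0.05, limma adjusted p = 0.698). Its partner Rpa2 had a log2 fold change of 0.08 (limma adjusted p = 0.734).

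Fen1, the flap nuclease, varied widely between libraries. It was at 15.5, 8.78 and 7.70 FPKM in the knockdown libraries, against 17.3, 16.7 and 5.84 FPKM in the controls. Its highest library was 2.97 times its lowest, and its 95% interval was -1.19 to 0.75 on the log2 scale. Apart from Ccnd3 and Fen1, the widest ratio of highest to lowest library among the 55 was 1.65, in Cdkn1b. Of 8771 tested genes with a mean of at least 3 FPKM, 1.20% had a ratio above 2.5, against 2 of 53 among the listed genes (Ccnd3 and Fen1). Neither cut-off was planned, and Ccnd3, at a mean of 3.01 FPKM, lies just above the floor. Tmem258, which overlaps Fen1 on the opposite strand, was at 15.7 to 17.8 FPKM in the knockdown libraries and 15.9 to 16.2 FPKM in the controls. The strand setting of the counting is not given in the sources used here, and 19 of the 55 genes overlap another tested gene.

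The genes that restore chromatin behind the fork were all below control, by little. Chaf1a and Chaf1b, subunits of the histone chaperone CAF-1, had log2 fold changes of -0.07 and -0.04. Chaf1a averaged 16.3 FPKM in the knockdown and 17.2 FPKM in the controls, and Chaf1b averaged 10.5 ± 0.75 FPKM in the knockdown and 10.7 ± 0.63 FPKM in the controls (SE of its fold change 0.07, limma adjusted p = 0.859). Uhrf1, which recognises hemimethylated CpG sites, averaged 21.5 ± 1.89 FPKM in the knockdown and 22.9 ± 1.29 FPKM in the controls. Dnmt1, the maintenance methyltransferase that it recruits, was at 31.1, 32.3 and 31.1 FPKM in the knockdown libraries, against 32.0, 32.3 and 35.3 FPKM in the controls (log2 fold change -0.07, SE 0.05, limma adjusted p = 0.583).

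**Figure D3:**
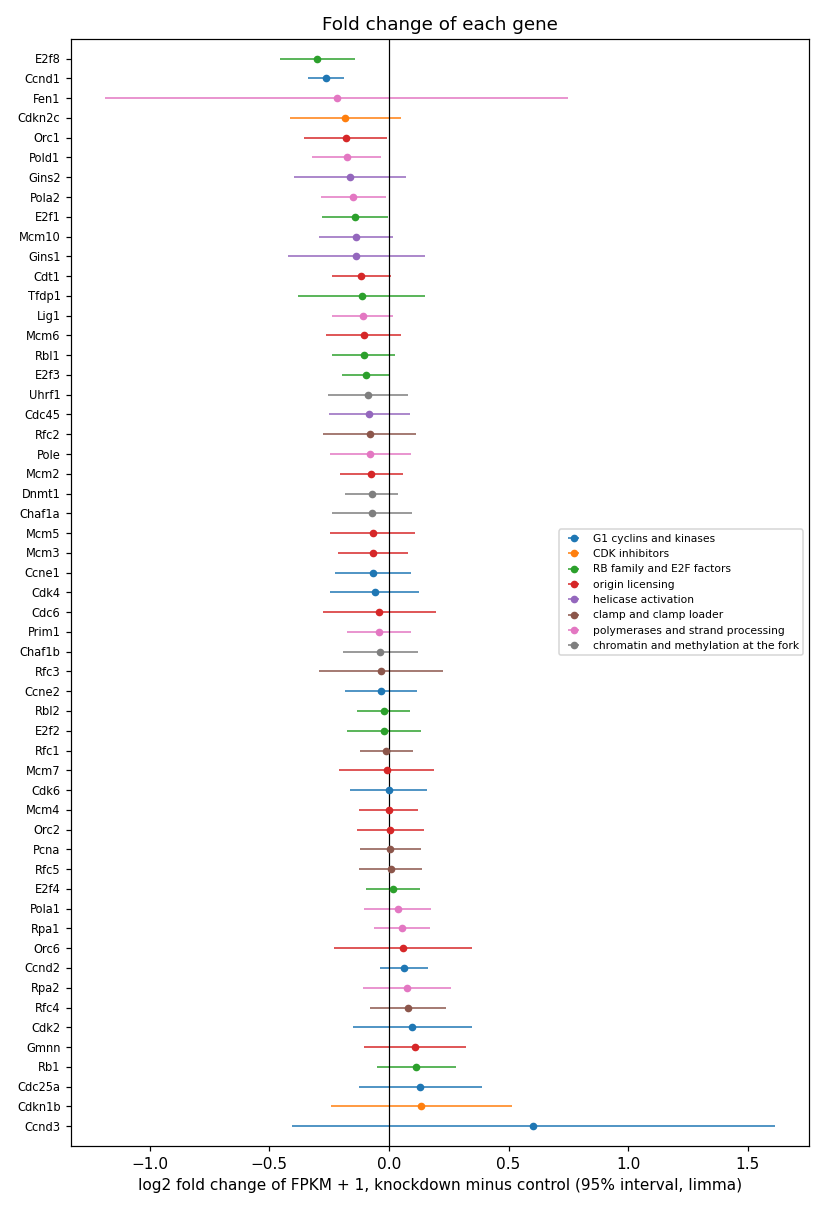
Log2 fold change of each of the 55 genes on log2(FPKM + 1), knockdown minus control, with its 95% limma interval, ordered by size and coloured by role. Most points lie left of 0, the intervals of Ccnd1 and E2f8 lie farthest from 0, and those of Ccnd3 and Fen1 are the widest.

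The fold changes were also set beside the promoter letters. Of the 19 tested genes with an E2F-type octamer in the promoter window, 16 were below control, and their median was -0.072 on the log2 scale. Of the 25 with an entry but without the octamer, 16 were below control, with a median of -0.036. The difference was not tested. Of the genes with an unadjusted p under 0.05, Orc1 and Pold1 held the octamer, E2f8, E2f1 and Pola2 held none in the window, and Ccnd1 had no entry.

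Other genes of the pathway were counted in the same way, and no test compared these lists with the 55 genes. Of 19 further G1/S control genes tested, 0 passed over all genes and 13 were below control (68.4%, against 47% of all genes). Groups that did not overlap numbered 4 lower and 2 higher (E2f6 and Tfdp2), against 8.36% and 9.99% of all genes. The median of the 19 genes was -0.069 on the log2 scale. Lower at an unadjusted p under 0.05 were 3 genes (15.8%, against 4.82% of all genes). They were the CDK inhibitor genes Cdkn2b and Cdkn2a, and Wee1, whose kinase restrains entry into mitosis. Cdkn2b was at 5.47 ± 0.18 FPKM in the knockdown and 6.52 ± 0.35 FPKM in the controls (SD, n = 3 each). Cdkn2a was at 67.4 ± 3.88 FPKM in the knockdown and 76.4 ± 4.40 FPKM in the controls. Wee1 had a log2 fold change of -0.19 (SE 0.07). Reads of Cdkn2a come from p16 and ARF transcripts, which share exons. For the 3 genes the limma adjusted p was 0.292, 0.360 and 0.375.

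Of 46 further replication genes, 0 passed and 28 were below control (60.9%, against 47% of all genes). At an unadjusted p under 0.05, 2 were lower (4.35%), a share near the 4.82% of all genes. All knockdown libraries lay below all controls in 5 of the 46 and above in 1, against 8.36% and 9.99% of all genes. The median of the 46 genes was -0.011 on the log2 scale. It changed sign with the library left out, at 0.011 without knockdown library 1, 0.0003 without control library 2 and -0.038 without knockdown library 2. The lowest was Cdc7, the kinase that triggers licensed origins, at 3.35, 3.42 and 4.93 FPKM in the knockdown libraries, against 5.37, 5.47 and 5.18 FPKM in the controls (log2 fold change -0.39, SE 0.12, limma adjusted p = 0.345). Chtf18, of an alternative clamp loader, had a log2 fold change of -0.19 (SE 0.07, limma adjusted p = 0.387), and the primase subunit gene Prim2 one of -0.13 (SE 0.06, limma adjusted p = 0.466).

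Of 10 nucleotide supply genes, 8 were below control (80%, against 47% of all genes). At an unadjusted p under 0.05 there were 0, against 4.82% of all genes lower and 6.47% higher. With 10 genes this count says little. Groups that did not overlap numbered 1 lower and 1 higher, against 8.36% and 9.99% of all genes. The median of the 10 genes was -0.03 on the log2 scale, and it was 0.02 without knockdown library 1 and -0.08 without knockdown library 2. The smallest p was that of the dNTP hydrolase gene Samhd1, whose log2 fold change was 0.08 (SE 0.04, limma adjusted p = 0.486). The deoxycytidine kinase gene Dck followed with -0.09 (SE 0.05, limma adjusted p = 0.563), and Shmt1, of the folate cycle, with -0.05 (SE 0.07, limma adjusted p = 0.781).

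Of 30 mitosis genes, 0 passed and 28 were below control (93.3%, against 47% of all genes). At an unadjusted p under 0.05, 2 were lower (6.67%, against 4.82% of all genes). All knockdown libraries lay below all controls in 2 of the 30 and above in 0, against 8.36% and 9.99% of all genes. The median was -0.11 on the log2 scale, and it was -0.061 without knockdown library 1 and -0.169 without knockdown library 2. The smallest p was that of Cdca8, of the chromosomal passenger complex, whose log2 fold change was -0.19 (SE 0.06, limma adjusted p = 0.359). The centromeric histone gene Cenpa followed with -0.16 (SE 0.06, limma adjusted p = 0.410), and the kinetochore gene Ndc80 with -0.19 (SE 0.08, limma adjusted p = 0.456). By library their medians relative to the control mean were -0.20, 0.02 and -0.14 in the knockdown libraries, against -0.10, 0.07 and 0.05 in the controls, in the order of the replicate numbers. Knockdown library 1 was thus the lowest for these genes as well, and control library 1 lay below the other two controls in both sets. Of 24 mitosis genes with a promoter entry, 1 held an E2F-type octamer (4.17%). Whether the 2 sets differ in fold change was not tested.

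**Figure D4:**
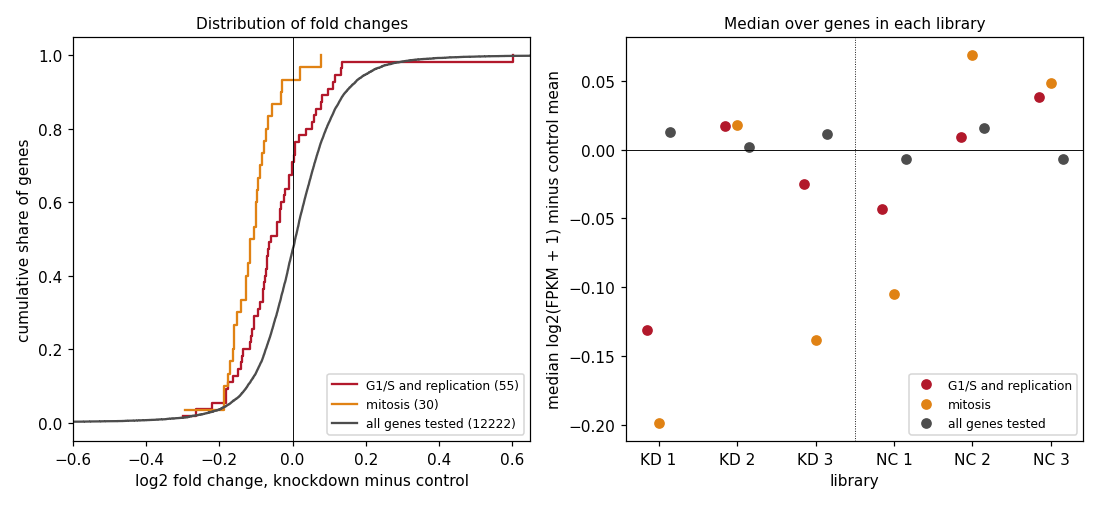
Left, cumulative share of genes by log2 fold change (knockdown minus control) for the 55 G1/S and replication genes, 30 mitosis genes and 12222 tested genes. Right, the median over each set of log2(FPKM + 1) minus the control mean in each library: knockdown library 1 lies lowest for both cell cycle sets, and knockdown library 2 lies near 0.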

How the data were processed

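Stranded libraries were prepared from TRIzol RNA after ribosomal RNA depletion, per the labels' protocols. HISAT2, StringTie and edgeR stand in the submitters' processing notes with no version or role, beside the build hg38, although the identifiers are mouse Ensembl genes. Neither annotation release nor strand setting is given in the sources used here. The authors deposited 1 value per gene and library without a unit, taken here as FPKM. In 1304 to 1352 genes with a single transcript per library, values times transcript length were divided by a step taken as 1 base. Of these, 74.8% to 77.3% lay within 0.1 of a whole number, against 20% by chance for a fixed step. The step was searched in each library for the highest such share, so 20% is not the share expected after the search. The step also gave the depth estimate. No count was given. The higher of the 2 group means was 0.501 FPKM or more in each gene listed.

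Identifiers were matched to GENCODE M21 (GRCm38) without version (12300 of 12327). Genes reaching 0.5 FPKM in 3 or more libraries entered a fit by limma (version 3.58.1, R 4.3.3) on log2(FPKM + 1), with a mean-variance trend, no covariate and Benjamini-Hochberg adjustment over 12222 genes; the pseudocount shrinks fold changes of weak genes. In 5 simulated runs of 12222 genes with these means and spreads, 200 genes were changed by 0.25 to 2 on the log2 scale. Of changes of 0.25, 28.4% were recovered, of 0.5, 69.2%, and of 1, 93.2%. Noise was drawn separately for each gene and library, without a shift of a whole library. Recovery also depends on how many genes change and by how much, so it can be lower in the real libraries. Ratios were compared by exact permutation. Promoter sequences are from RefSeq (GRCm38.p6). Python 3.11.15, numpy 2.4.6, pandas 2.3.3 and scipy 1.17.1 were used.

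The genes and lists were chosen with earlier results of these data known. Full statistics are given for the 10 genes with the smallest p, every gene without overlap and an unadjusted p under 0.05, the highest and lowest level per role, and the 3 smallest p of each other list; the remaining genes were described for their roles, and E2f6 and Tfdp2 were named after their values were seen. Alternatives were a replicate block, each library left out, 2 filters, 2 pseudocounts, 2 normalizations, 2 moderation settings and a GC and length trend (loess, span 0.3). The same trend with the longest transcript was added after seeing the data. Sequences of proteins were not used here.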

Additional observations from a re-analysis of the deposited data

How the results depend on the processing

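Of the 55 genes, 1 (Ccnd1) passed a limma adjusted p of 0.05 with the GC and length trend of the longest transcript removed, a setting chosen after seeing the data. Under each other alternative 0 of the 55 passed (over all genes, 791 to 1651 then had an unadjusted p under 0.05). Leaving out 1 library at a time, 6 (without knockdown library 2 or 3) to 18 (without control library 2) genes of the whole table passed. Of the 55, 2 to 11 were lower and 0 to 1 higher at an unadjusted p under 0.05, and 9 to 21 lay below all controls and 0 to 4 above. Their median log2 fold change was -0.088 to -0.013, lower than 0 in each. Fewer libraries make non-overlap more frequent. Over all genes, 3.74% were lower at an unadjusted p under 0.05 without knockdown library 1, and 4.05% without knockdown library 2. Of all genes 12.9% lay below all controls and 14% above without knockdown library 1. Without knockdown library 2 these shares were 12.3% and 16.1%. With the GC and length trend of the median transcript removed, 1 of the 55, against 0 as reported, lay above all controls. The median of the other G1/S control genes was -0.0805 (without control library 1) to -0.0049 (without control library 2) with 1 library left out. Adding the replicate number to the fit as a block, 0 genes of the whole table passed (1330 at an unadjusted p under 0.05), Gch1 had a limma adjusted p of 0.0604 and Ccnd1 one of 0.365. Deviations of same-numbered libraries correlated at 0.09, 0.06 and 0.09 across genes, and each library had its highest correlation with its own number. This is a hint given by the data alone, since the labels do not pair the libraries. Of 1143 comparisons of single genes with their reported values, 1091 kept direction and side of the threshold, 50 of genes that passed in neither fit changed sign, 1 lost the threshold (Gch1, above) and 1 gained it (Ccnd1). Depth limits the genes near 2 FPKM, such as Orc1 and Ccne2, and the number of reads behind them is unknown.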
